A study of Mus musculus with 20 samples.

Results

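The heat shock proteins described here are 10 chaperone genes, Hspa1a, Hspa1b, Hspa5, Hspa8, Hsph1, Hspb1, Hsp90aa1, Hsp90ab1, Hsp90b1 and Dnajb1, chosen by name from the 19463 genes of a whole-brain RNA-Seq table. These genes and the gene lists below were chosen with earlier results of these data known. Each of the 10 symbols matched 1 Ensembl gene ID of the table through the GENCODE M21 annotation of GRCm38, and all 10 had a mean value over the filter of 10. The study compared whole brains of male C57BL/6J mice of 2 genotypes and 2 ages, with 5 mice in each of 4 groups and 20 in all. WT mice were compared with Katnal2-KO mice at postnatal day 21 (P21, 3 weeks, about the age of weaning) and at P70 (10 weeks). Katnal2-KO mice were homozygous for a frame-shifting deletion of exon 3 of Katnal2, which encodes a katanin-like protein related to microtubule severing. They descend from the EUCOMM allele Katnal2tm1a(EUCOMM)Wtsi, bred to Flp mice and treated with Cre recombinase at the embryo stage, so that all cells carry the deletion, and the line was backcrossed to C57BL/6J for more than 5 generations. All mice were on a 12 h light and dark cycle.

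Chaperones bind proteins that are not folded and keep them from aggregating. HSP70 proteins bind and release their clients in a cycle driven by ATP, J-domain proteins such as DNAJB1 start this cycle, and HSP110 proteins such as HSPH1 exchange the nucleotide that ends it. HSP90 proteins act later, on kinases, receptors and other clients that are nearly folded, whereas small heat shock proteins such as HSPB1 hold unfolded clients without ATP. In the cytosol some of these genes are on at all times in neurons (Hspa8, Hsp90ab1), and others (Hspa1a, Hspa1b, Hspb1, Dnajb1) are known as targets of heat shock factor 1, which binds heat shock elements when cells are stressed or warmed. Hspa5 (BiP) and Hsp90b1 (GRP94) encode the HSP70 and HSP90 of the endoplasmic reticulum (ER), which rise in the unfolded protein response through ER stress response elements.

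No member promoter examined held both kinds of element. RefSeq (GRCm38.p6) gave 9 promoters of 300 bases, from 250 bases before to 50 after a start, for 7 of the 10 members. No entry was used for Hspa8, Hsp90aa1 and Hsp90ab1. A heat shock element of 2 units (GAANNTTC or TTCNNGAA, each its own reverse complement) was found in 4 of the 7, Hspa1a, Hspa1b, Hspb1 and Hsph1, and in 15.1% of 32851 promoters of the same length. An element of 3 units (either of those followed, after any 2 bases, by the next alternating GAA or TTC, and so containing both) was found in Hsph1 and in 0.603% of all promoters. An ER stress response element (CCAAT, any 9 bases, CCACG, on either strand) was found in Hspa5 and Hsp90b1 and in 0.119% of all promoters. Neither of the 2 Dnajb1 promoters held any of these elements. None of the 7 genes held TATAAA, which 13.6% of promoters held. The Hspa1a and Hspa1b promoters differed at 4 of 300 bases. A match here is a description of letters and not a binding site. The stretches below run from 220 bases before to 30 bases after the RefSeq start of the 6 genes with an element, 5′ to 3′, and are shown because they hold these elements.
The capitals mark the heat shock element in the first 4 and the ER stress response element in the last pair.
Hspa1a, chr17:34972127-34972376, minus strand: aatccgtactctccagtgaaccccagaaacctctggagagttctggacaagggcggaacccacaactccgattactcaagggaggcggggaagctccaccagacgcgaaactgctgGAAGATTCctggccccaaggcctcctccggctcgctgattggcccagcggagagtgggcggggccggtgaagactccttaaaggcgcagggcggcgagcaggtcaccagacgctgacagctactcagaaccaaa
Hspa1b, chr17:34959209-34959458, minus strand: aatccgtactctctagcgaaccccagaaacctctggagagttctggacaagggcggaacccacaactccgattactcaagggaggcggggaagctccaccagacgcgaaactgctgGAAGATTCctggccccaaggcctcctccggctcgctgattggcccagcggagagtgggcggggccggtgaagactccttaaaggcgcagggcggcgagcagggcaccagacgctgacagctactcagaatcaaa
Hspb1, chr5:135887699-135887948, plus strand: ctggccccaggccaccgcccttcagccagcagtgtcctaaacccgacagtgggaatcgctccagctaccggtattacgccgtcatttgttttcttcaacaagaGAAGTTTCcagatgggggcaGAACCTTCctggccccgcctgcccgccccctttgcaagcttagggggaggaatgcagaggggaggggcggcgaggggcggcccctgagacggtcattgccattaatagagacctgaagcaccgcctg
Hsph1, chr5:149636286-149636535, minus strand: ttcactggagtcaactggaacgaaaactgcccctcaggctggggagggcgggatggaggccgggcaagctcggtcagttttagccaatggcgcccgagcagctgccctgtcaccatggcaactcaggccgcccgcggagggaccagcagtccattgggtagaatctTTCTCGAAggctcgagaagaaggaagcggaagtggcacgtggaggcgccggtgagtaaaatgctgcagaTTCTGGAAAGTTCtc
Hspa5, chr2:34771870-34772119, plus strand: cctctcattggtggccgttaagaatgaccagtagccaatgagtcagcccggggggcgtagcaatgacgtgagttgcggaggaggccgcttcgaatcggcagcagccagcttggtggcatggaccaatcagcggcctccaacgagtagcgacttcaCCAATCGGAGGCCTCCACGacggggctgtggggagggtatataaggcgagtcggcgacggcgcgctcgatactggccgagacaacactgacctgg
Hsp90b1, chr10:86705415-86705664, minus strand: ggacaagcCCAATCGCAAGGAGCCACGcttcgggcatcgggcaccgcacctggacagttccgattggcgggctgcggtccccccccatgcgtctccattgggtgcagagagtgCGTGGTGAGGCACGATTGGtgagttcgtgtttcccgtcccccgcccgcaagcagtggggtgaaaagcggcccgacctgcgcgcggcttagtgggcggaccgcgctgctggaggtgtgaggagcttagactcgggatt
The first base of the element lay 104 bases before the start in both Hspa1a and Hspa1b. It lay 117 and 97 bases before the start in Hspb1, 54 before the start and at position 16 of the transcript in Hsph1 (the latter is the element of 3 units, and the stretch shown belongs to the downstream of 2 starts that RefSeq gives), 65 before in Hspa5, and 212 and 107 before in Hsp90b1.

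The values are normalized counts made by the authors, estimated read counts per gene divided by size factors, so they compare a gene between mice. They sum to between 27310523 and 28423042 per mouse after that scaling, so the sums do not show sequencing depth, and whole reads could not be recovered from them. Katnal2 itself was at 89.0 ± 8.72 in P21 KO against 107 ± 7.38 in P21 WT mice, and at 105 ± 11.8 in P70 KO against 122 ± 16.4 in P70 WT mice (mean ± SD, n = 5). The P21 groups did not overlap (78.1 to 96.0 against 99.3 to 115) and the P70 groups did (95.1 to 125.5 against 101 to 142). A transcript that lacks 1 exon is still counted, so the gene-level value checks the labels only in part. Neuron markers were high in every mouse (5 of 5 present, summed values 116000 to 132100), as whole brain should give, and the liver gene Apoa1 did not exceed 9.11. Of 3 skeletal muscle genes, Ckm was absent and the other 2 summed to between 108.4 and 219.7 per mouse. In 18 mice, 0.391% to 2.01% of 12773 genes lay more than 1.5-fold from the median of their group's other mice, but the P70 KO and P70 WT mice numbered 5 stood apart, with 23.2% and 13.9% of these genes. Where leaving out these 2 mice changed the call or the direction of a member's age difference, both values are given. Differences are of log2(value + 1), fitted with limma over all genes passing the filter, and adjusted p is Benjamini-Hochberg adjusted over those genes with a threshold of 0.05. The labels name no litter, day or batch, so a p-value measures the spread between these mice only.

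Per kilobase of transcript, the 10 genes spanned more than 2 orders of magnitude in P21 WT mice. The span was smaller in P70 WT mice, from 24220 (Hspa8) to 271 (Hspa1a). In P21 WT mice the level per kilobase was 22540 for Hspa8, 14160 for Hsp90ab1 and 8638 for Hsp90aa1, so cytosolic chaperones held the first 3 places, the constitutive Hspa8 and Hsp90ab1 before the inducible Hsp90aa1. The ER chaperones Hsp90b1 and Hspa5 followed at 2881 and 1900, with Hsph1 at 1797. Dnajb1 was at 453, Hspb1 at 157, Hspa1a at 102 and Hspa1b at 86.5. In that group neighbours in this order overlapped in 3 of 9 steps, Hspa5 with Hsph1, Hspb1 with Hspa1a and Hspa1a with Hspa1b, and Hspa5 was above Hsph1 in 2 of 5 mice. The first 4 places were held by the same genes in the same order in all 4 groups, and they did not overlap with one another in any group. At P70 the last places changed, with Hspa1b above Hspa1a in 4 of 5 mice of each genotype. These levels carry a limit for genes with close copies: of the windows of 100 bases in the principal transcript, 48.6% of those of Hspa1a and 49.9% of those of Hspa1b were also found in other genes, nearly all in each other, and 62.8% for Hspa8, 56.3% for Hspb1 and 47.5% for Hsp90aa1 were found mostly in pseudogenes. The split between Hspa1a and Hspa1b is uncertain for that reason, while Hspa5, Hsph1, Hsp90ab1 and Dnajb1 shared no window.

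**Figure D1:**
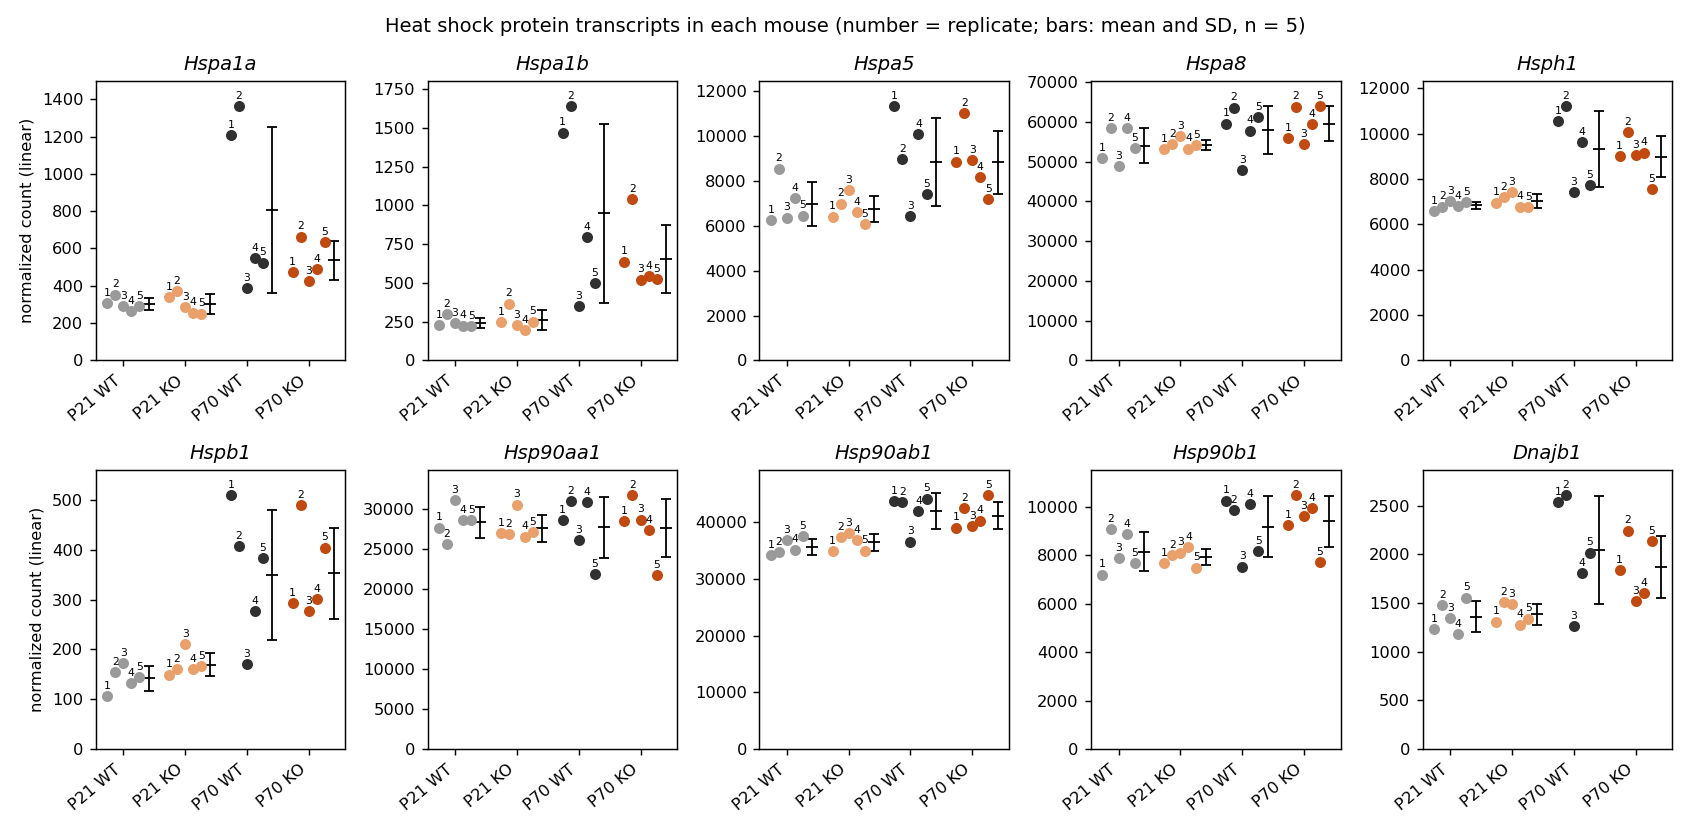
Normalized counts (linear axis from 0) of the 10 genes in each of the 20 mice, by group, with the replicate number over each point and the mean and SD (n = 5) beside it. Hspa1b ranged from 351 to 1639 in P70 WT mice and from 223 to 297 in P21 WT mice.

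The comparison of ages asks how the chaperone genes of the brain differ between weaning and young adulthood. In WT mice 6 of the 10 genes rose from P21 to P70 and 0 fell, where 5.53% of 17637 genes rose and 5.62% fell. Because the 10 genes were chosen with earlier results of these data known, such shares are given as a description and not as a test. The inducible genes Hspa1b, Hspa1a and Hspb1 rose the most, 3.32-fold, 2.37-fold and 2.33-fold, and Dnajb1, Hsph1 and Hsp90ab1 rose 1.47-fold, 1.34-fold and 1.18-fold. In KO mice 4 of the 10 rose and 0 fell, Hspa1b, Hspb1, Hspa1a and Hsph1, which are all among the 6 of WT mice, where 5.47% of genes rose and 6.4% fell. The KO count rests on few mice: it was 2 (Hspa1b and Hspb1) without P70 KO mouse 2, 3 by limma without the intensity trend (Hspa1a at 0.054) and 6 with the KO mice fitted alone. No share of all genes is given for these 3 fits, so their counts show only how the call moved. The labels give no ground for pairing mice of the 2 ages, which are different animals. With same-numbered P21 and P70 KO mice blocked together even so, the KO count was 5, where 4.07% of genes rose and 4.76% fell. Without both P70 mice numbered 5 it was 7 in each genotype, where 11.2% of genes rose and 9.97% fell in WT and 10.9% rose and 11.1% fell in KO mice. The median difference of the 10 genes was 0.38 in WT and 0.36 in KO mice on the log2 scale, and that of all genes tested was 0.0013 and -0.010. The lowest P70 mouse lay above the highest P21 mouse for 3 of the 10 genes in WT (Hspa1a, Hspa1b, Hsph1) against 5.19% of genes, and for 6 in KO mice (the same 3 with Hspb1, Hsp90ab1 and Dnajb1) against 5.38%. The reverse held for none of the 10 in either genotype, against 5.6% of genes in WT and 5.51% in KO mice. Whether P21 and P70 libraries were prepared or sequenced together is not given in the sources used here, so age and such a batch cannot be told apart.

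Hspa1a and Hspa1b are neighbouring genes of 1 exon on the minus strand of chromosome 17 (GRCm38, 17:34969190-34972156 and 17:34956436-34959238) that encode the same kind of stress-inducible HSP70. In replicate order, Hspa1a was at 307, 353, 292, 265 and 289 in P21 WT mice and at 339, 372, 287, 256 and 251 in P21 KO mice. It was at 1206, 1361, 386, 548 and 524 in P70 WT mice and at 472, 663, 427, 490.3 and 632 in P70 KO mice. All 20 values put every P70 mouse above every P21 mouse of its genotype, and P70 WT mice 1 and 2 stood far above the other 3. The difference by age was 1.24 in WT (SE 0.25, limma adjusted p = 0.00252) and 0.83 in KO mice (SE 0.25, adjusted p = 0.0378). The WT call was kept without each mouse in turn, whereas the KO call was lost without any 1 of 7 mice, P21 KO 1, 3, 4 or 5 or P70 KO 2, 4 or 5, with an adjusted p of up to 0.0927. Without both P70 mice numbered 5, the differences were 1.35 and 0.76 (adjusted p = 0.001 and 0.0427).

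Hspa1b was at 229, 296, 239.5, 224 and 223 in P21 WT mice and at 245, 366, 228, 197 and 250.0 in P21 KO mice. At P70 it was at 1470.2, 1639, 351, 794 and 497 in WT mice and at 638, 1041, 522, 542 and 526 in KO mice. Again no P70 mouse fell into the range of P21 mice of its genotype, and P70 WT mice 1 and 2 and P70 KO mouse 2 were the 3 highest of the 20. The difference by age was the largest of the 10 genes in both genotypes, 1.73 in WT (SE 0.32, limma adjusted p = 0.000939) and 1.32 in KO mice (SE 0.32, adjusted p = 0.00818), and was called without each mouse in turn. The fold between the highest and the lowest mouse was 4.67 in the P70 WT group and 1.33 in the P21 WT group.

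Dnajb1 (8:83608193-83612653, plus strand), whose product brings clients to HSP70, was at 1233, 1475, 1343, 1183 and 1556 in P21 WT mice and at 1309, 1509.5, 1490.5, 1277 and 1339.9 in P21 KO mice. At P70 it was at 2532, 2607, 1261, 1809 and 2016 in WT and at 1839, 2244, 1519, 1598 and 2133 in KO mice. P70 WT mouse 3 lay inside the P21 WT range and the other 4 above it, and the highest P21 KO mouse (1509.5) lay just under the lowest P70 KO mouse (1519). The difference was 0.55 in WT (SE 0.15, limma adjusted p = 0.0223) and 0.42 in KO mice (SE 0.15, adjusted p = 0.0855). The WT call was lost without P21 WT 1, P21 WT 4, P70 WT 1 or P70 WT 2, with an adjusted p of up to 0.0732. With each genotype fitted alone the calls changed places, with an adjusted p of 0.0548 in WT and 0.0371 in KO mice.

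Hsph1 (5:149614287-149636376, minus strand), the HSP110 partner of HSP70, lay in a narrow band in young brains. It was at 6589, 6779, 7018, 6791 and 6975 in P21 WT mice and at 6956, 7206, 7436, 6776 and 6772 in P21 KO mice. At P70 it was at 10550.3, 11199, 7434, 9640.5 and 7719.6 in WT mice and at 9018, 10069, 9049.7, 9163 and 7551 in KO mice. The age groups did not overlap in either genotype, and P70 WT mice 3 and 5 and P70 KO mouse 5 came closest to the P21 mice. The difference was 0.43 in WT (SE 0.09, limma adjusted p = 0.00463) and 0.35 in KO mice (SE 0.09, adjusted p = 0.0195), and without P70 KO 2 the adjusted p in KO mice was 0.0538.

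Hspb1 (5:135887919-135889563, plus strand), the small heat shock protein HSP25, was the only member besides Hspa1a and Hspa1b to rise more than 2-fold in WT mice. It was at 107, 154, 173, 132 and 144 in P21 WT mice and at 149.6, 161, 210.2, 160.3 and 167 in P21 KO mice. At P70 it was at 510.0, 407, 171, 277 and 384 in WT mice and at 293, 490.1, 278, 302 and 404 in KO mice. P70 WT mouse 3 lay inside the P21 range of its genotype and all other P70 mice above theirs. The difference was 1.22 in WT (SE 0.22, limma adjusted p = 0.00101) and 1.03 in KO mice (SE 0.22, adjusted p = 0.00389), and was called without each mouse in turn.

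Of the constitutive cytosolic chaperones, Hspa8 was not called by age and Hsp90ab1 rose in WT mice. Hspa8 (9:40800984-40810087, plus strand), the HSC70 protein that also strips clathrin from vesicles, ranged from 48876 to 58469 in P21 WT and from 47895 to 63568 in P70 WT mice. Its difference was 0.10 in WT (95% interval -0.05 to 0.25, limma adjusted p = 0.43) and 0.13 in KO mice (-0.02 to 0.28, adjusted p = 0.283). Hsp90ab1 (17:45567775-45573271, minus strand), the constitutive HSP90, was at 34167, 34718, 36909.8, 35177 and 37504 in P21 WT and at 43743, 43625, 36592, 41932 and 44192 in P70 WT mice. It was at 34866, 37418, 38148, 36787 and 35018 in P21 KO and at 39043, 42453, 39314, 40312 and 44789 in P70 KO mice. P70 WT mouse 3 was the 1 P70 mouse within the P21 range of its genotype. The difference was 0.23 in WT (SE 0.06, limma adjusted p = 0.0109) and 0.18 in KO mice (SE 0.06, adjusted p = 0.0531). Without the P70 mice numbered 5 it was called in KO mice at 0.14 (adjusted p = 0.05 after rounding).

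Hsp90aa1 (12:110690605-110702728, minus strand), the HSP90 known as inducible, was the only member with a difference below 0 in both genotypes, -0.04 in WT (95% interval -0.24 to 0.16) and -0.01 in KO mice (-0.21 to 0.19), and both turned positive, at 0.04 and 0.07, without the P70 mice numbered 5. It was at 28632, 31008, 26124, 30912 and 21856 in P70 WT mice and at 28476, 31754, 28700.0, 27419 and 21772 in P70 KO mice. The mice numbered 5 were the lowest of all 20 for this gene, while Hsp90ab1 was highest of all in the same 2 mice.

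Neither ER chaperone was called by age in either genotype, with differences above 0 in both. Hspa5 (2:34771970-34777547, plus strand) was at 6246, 8560.1, 6369, 7244 and 6459 in P21 WT mice and at 11329.8, 8979, 6425, 10083 and 7415 in P70 WT mice. It was at 6416, 6991, 7608, 6599 and 6086 in P21 KO mice and at 8871, 11028, 8919, 8159.7 and 7201 in P70 KO mice. P70 WT mouse 3 and both mice numbered 5 lay inside the P21 range of their genotype. The difference was 0.32 in WT (SE 0.13, limma adjusted p = 0.129) and 0.38 in KO mice (SE 0.13, adjusted p = 0.0687). It passed the threshold in both, at 0.38 and 0.45 (adjusted p = 0.0411 and 0.0157), without the P70 mice numbered 5, and also without P70 WT 3 alone in WT mice (adjusted p = 0.0303) and without P70 KO 5 alone in KO mice (adjusted p = 0.0255). With each genotype fitted alone it was called in KO mice (adjusted p = 0.0413). Hsp90b1 (10:86690209-86705509, minus strand) differed by 0.17 in WT (SE 0.09, adjusted p = 0.276) and 0.24 in KO mice (SE 0.09, adjusted p = 0.101), and without both mice numbered 5 by 0.21 and 0.31 (adjusted p = 0.0721 and 0.00862). Without P70 KO 5 alone the adjusted p in KO mice was 0.0177.

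**Figure D2:**
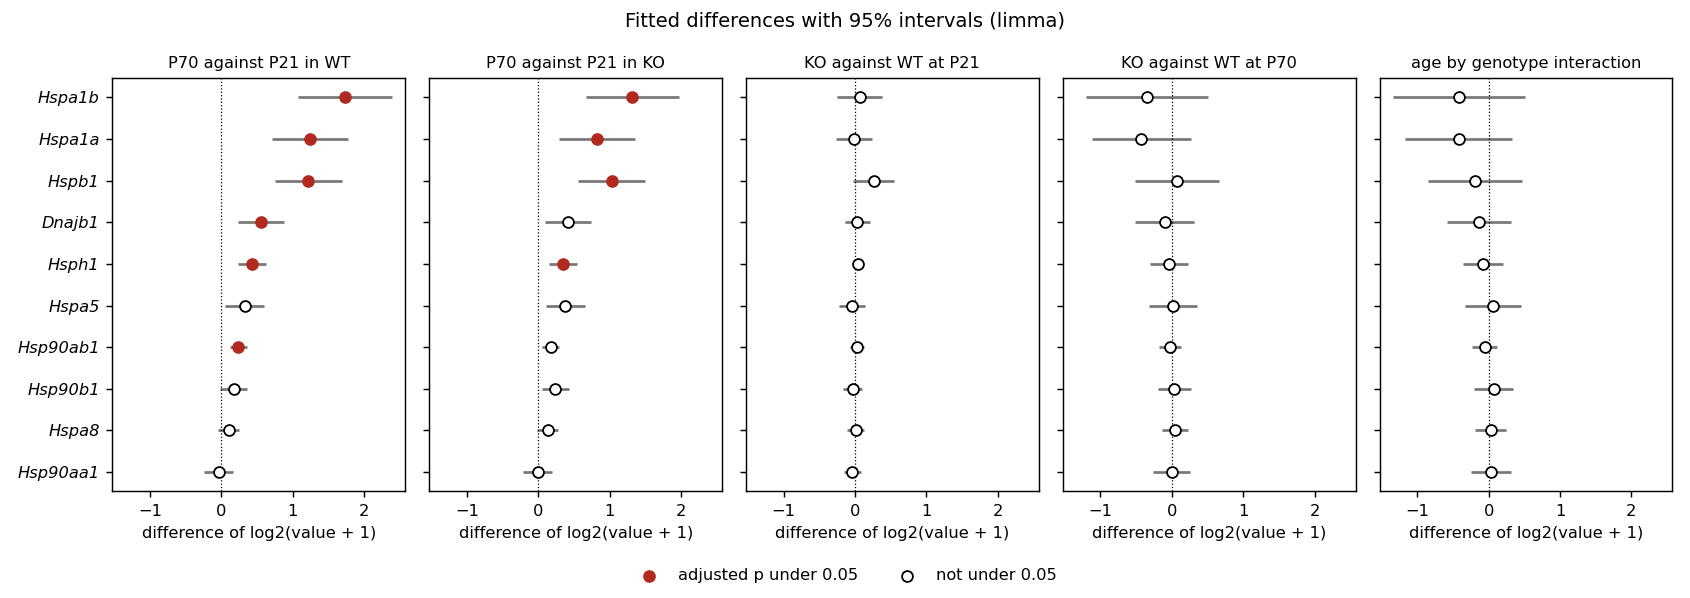
Fitted differences of log2(value + 1) with 95% intervals for the 10 genes in the 5 comparisons, filled where the adjusted p was under 0.05. Hspa1b is at 1.73 and 1.32 by age in WT and KO mice, and all intervals of the genotype comparisons and the interaction include 0.

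The comparison of genotypes asks whether loss of Katnal2 altered these genes at either age. None of the 10 was called at P21 or at P70, where 0 of 17610 and 0 of 17613 genes were called (0% each). None had an unadjusted limma p under 0.05, which 429 genes (2.44%) had at P21 and 199 (1.13%) at P70. With such shares, 0 of 10 does not set the members apart from other genes. At P21 the differences of KO from WT mice ranged from -0.04 to 0.26. The extreme one was Hspb1, at 170 ± 23.5 in KO and 142 ± 24.7 in WT mice (mean ± SD, n = 5). That difference was 0.26 on the log2 scale (SE 0.13, 95% interval -0.02 to 0.55), with a limma adjusted p = 1. The 95% intervals of Hspa8, Hsp90ab1, Hsp90aa1, Hsph1, Hsp90b1 and Dnajb1 all lay between 0.888-fold and 1.15-fold. At P70 the differences ranged from -0.43 to 0.07, and the intervals of Hspa1a, Hspa1b and Hspb1 were wide. Hspa1a differed by -0.43 (SE 0.32, interval -1.12 to 0.27), Hspa1b by -0.35 (SE 0.39, interval -1.21 to 0.50) and Hspb1 by 0.07 (SE 0.27, interval -0.51 to 0.66). Without the mice numbered 5, Hspa1a differed by -0.60 and Hspa1b by -0.46, and neither was called. P70 WT mice 1 and 2 were the only WT mice above the highest KO mouse for both genes, and leaving out each P70 mouse in turn gave differences of -0.65 to -0.09 for Hspa1b and -0.65 to -0.19 for Hspa1a. The age by genotype interaction, which compares the age differences of the 2 genotypes directly, ranged from -0.42 (Hspa1a, SE 0.36) to 0.07 (Hsp90b1, SE 0.13). In it 0 of the 10 genes and 0% of 17637 genes were called. There 296 genes (1.68%) had an unadjusted limma p under 0.05, none of them a member. Dnajb1 and Hsp90ab1 were called by age in WT and not in KO mice, but their interaction was not called (-0.13, SE 0.22, and -0.06, SE 0.08). Their calls also moved with the fit: with each genotype fitted alone Dnajb1 was called in KO and not in WT mice, and without the P70 mice numbered 5 Hsp90ab1 was called in both.

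Mice of the same group differed in these genes more at P70 than at P21. The median SD of log2 values over the 10 genes was 0.15 in P21 WT, 0.10 in P21 KO, 0.30 in P70 WT and 0.21 in P70 KO mice. Over 17597 genes the median SD also was larger at P70, 0.14, 0.14, 0.22 and 0.24 in the same order. Over the 12773 genes with a mean of at least 100, as all members have, it was 0.11, 0.11, 0.18 and 0.20. The shares of genes that follow are over the 17597, low genes included. In P70 WT mice Hspa1b (SD 0.96) and Hspa1a (SD 0.80) varied more than 98.6% and 97.6% of genes, and Hspb1 (SD 0.61) more than 94.2%. Hsp90ab1 was the steadiest member of that group (SD 0.11, above 16.9% of genes). In P21 WT mice Hsph1 had an SD of 0.04, above 2.19% of genes.

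**Figure D3:**
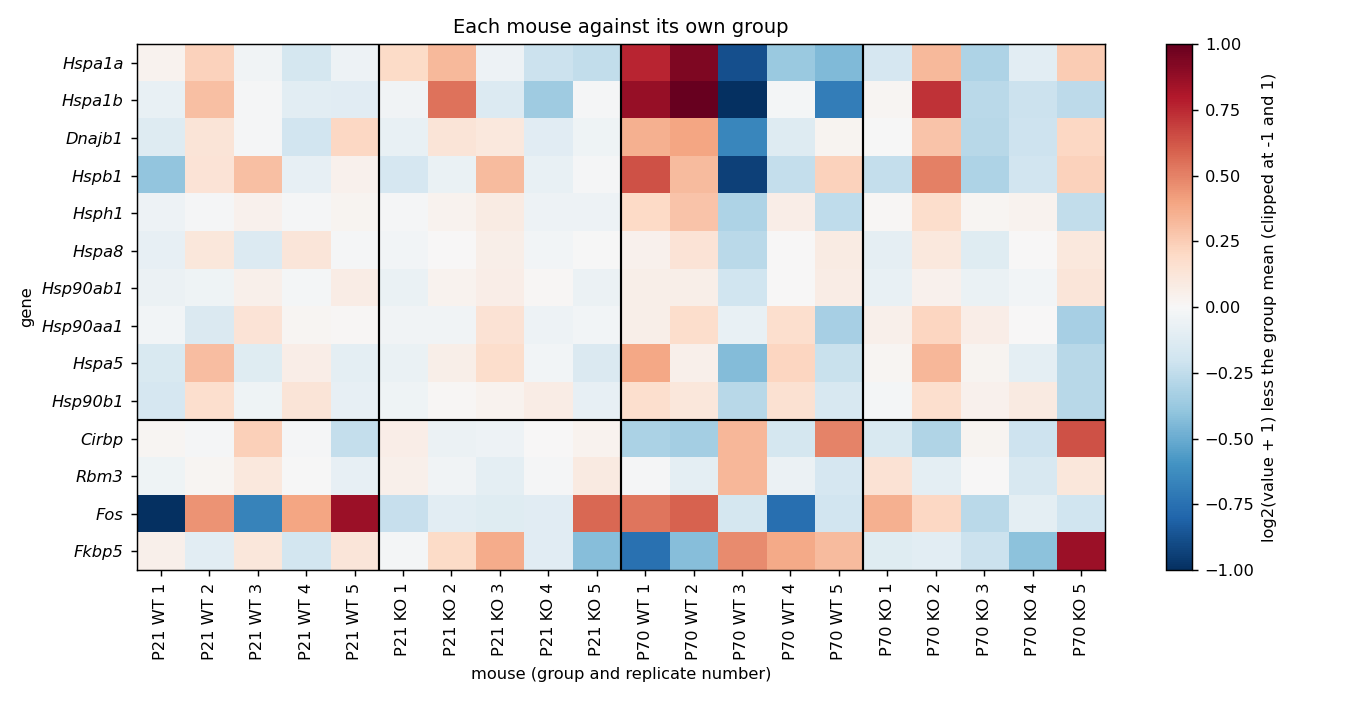
Heat map of log2(value + 1) less the mean of the mouse's own group, for the 10 genes and 4 others (rows) in the 20 mice (columns), with colours clipped at -1 and 1. P70 WT mice 1 and 2 and P70 KO mouse 2 are above their group mean for all 10 genes, and P70 WT mouse 3 and P21 KO mouse 5 are below it for all 10.

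Many members moved together from mouse to mouse at P70, and fewer did so at P21. P70 WT mice 1 and 2 and P70 KO mouse 2 lay above their group's mean for all 10 genes, and P70 WT mouse 3 and P21 KO mouse 5 lay below it for all 10. P21 KO mice 2 and 3 lay above it for 8 of the 10. The mean deviation of Hspa1a and Hspa1b was 0.82 and 0.98 in P70 WT mice 1 and 2, 0.525 in P70 KO mouse 2 and -1.04 in P70 WT mouse 3. Over the 45 pairs of members, the median Pearson correlation of log2 values less the group mean was 0.559 over 20 mice, 0.248 over the 10 P21 mice and 0.674 over the 10 P70 mice. The pairs ranged from -0.341 to 0.827 over the P21 mice and from -0.224 to 0.951 over the P70 mice. Without the P70 mice numbered 5 the median was 0.888 over 8 mice, with a range of 0.573 to 0.994. These are descriptions without a test: the genes share the library and its scaling in each mouse, Hspa1a and Hspa1b share sequence, and 8 mice are few. Same-numbered P70 mice of the 2 genotypes also deviated together, and the correlations treat them as separate. Mouse 2 had the highest mean deviation of Hspa1a and Hspa1b in every group (0.431 in P21 KO and 0.266 in P21 WT mice). Hspa1b and Dnajb1 had r = 0.994 and rho = 1 over those 8 mice, and r = 0.987 without the 2 mice farthest from the median. In the 10 P21 mice the same pair had r = 0.474 and rho = 0.333, and r = 0.0822 without the 2 farthest. Over the 8 P70 mice this pair had the highest r of the 45. Other pairs rested more on the 2 farthest mice, such as Hspa1a with Hsp90aa1 (0.573, and 0.011 without them) and Hspa5 with Hsph1 (0.809 and 0.373). Some did not, such as Hsph1 with Hsp90ab1 (0.974 and 0.97). The ER pair Hspa5 and Hsp90b1 had r = 0.827 at P21 and 0.907 at P70 over 10 mice each (rho = 0.879 and 0.952; 0.848 and 0.866 without the 2 farthest). Hsp90aa1 and Hsp90ab1 had r = -0.224 over the 10 P70 mice and 0.78 over the 8 without number 5.

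Cirbp, which encodes a cold-inducible RNA-binding protein that is known to rise as cells cool and fall as they warm, ran opposite to the members over 8 of the 10 P70 mice, as other genes did. It was at 946, 929, 1482, 1038 and 1655 in P70 WT mice and at 1108, 996, 1252, 1067 and 1909.9 in P70 KO mice. The 3 P70 mice with all members above their group mean had the 3 lowest Cirbp values of the 20 mice, and P70 WT mouse 3 the highest of the 8 P70 mice other than those numbered 5. Over these 8 mice its correlation with the 10 members ranged from -0.722 (Hsp90aa1) to -0.964 (Hsp90ab1), with -0.963 for Hspa8, -0.954 for Hsph1 and -0.937 for Hspa1b. The rho of these 3 with Cirbp was -0.952, -0.976 and -0.929, and r without the 2 farthest mice was -0.895, -0.828 and -0.797. For Hspa5 and Hsp90aa1 the relation rests on the 2 farthest mice, with r = -0.361 and -0.358 without them. Over all 10 P70 mice r was -0.932 for Hsph1 and -0.931 for Hsp90b1, against 0.043 for Hsp90ab1 and -0.157 for Hspa8, and over the 10 P21 mice r ranged from -0.509 (Dnajb1) to 0.233 (Hsp90aa1) and rho from -0.624 (Hspa8) to 0.224 (Hspa1b). Hsph1 had r = -0.166 over the P21 mice and -0.69 without the 2 farthest. Rbm3, the other cold-inducible gene of the list, had r between -0.631 and -0.902 with the members over the 8 mice, and between -0.00615 and -0.724 without the 2 farthest. Cirbp is not alone in this. Parn and Cars, chosen after their values were seen, had r = -0.949 and -0.882 with Hsph1 over the 20 mice, against -0.873 for Cirbp, and Parn had -0.963 with the mean of Hspa1a and Hspa1b over the 8 mice. Fkbp5 had r between -0.129 (Hsp90aa1) and -0.851 (Hspa1a) with the members over the 8 mice. Without the 2 farthest mice its r ran from -0.773 (Hspa1a) to 0.593 (Hspa5), and over the 10 P21 mice from -0.178 (Hspa8) to 0.811 (Hsph1). With all mice neither Cirbp nor Rbm3 was called in any comparison by limma, the age difference of Cirbp being -0.31 in WT (SE 0.16, adjusted p = 0.257) and -0.12 in KO mice (SE 0.16, adjusted p = 0.701). Without the P70 mice numbered 5, the age difference of Cirbp was -0.43 in WT mice (SE 0.11, adjusted p = 0.00877), which was called, and -0.28 in KO mice (SE 0.11, adjusted p = 0.0742), which was not. The 4 P70 KO mice other than number 5 all lay below the lowest P21 KO mouse (1288), but P70 KO mouse 5 was the highest of the 20 mice. P70 WT mice 3 and 5 lay inside the P21 WT range (1230 to 1721). No share of all genes is given for this, so it is a description only. Body temperature, the hour of collection and the time from death to preservation are not given in the sources used here.

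**Figure D4:**
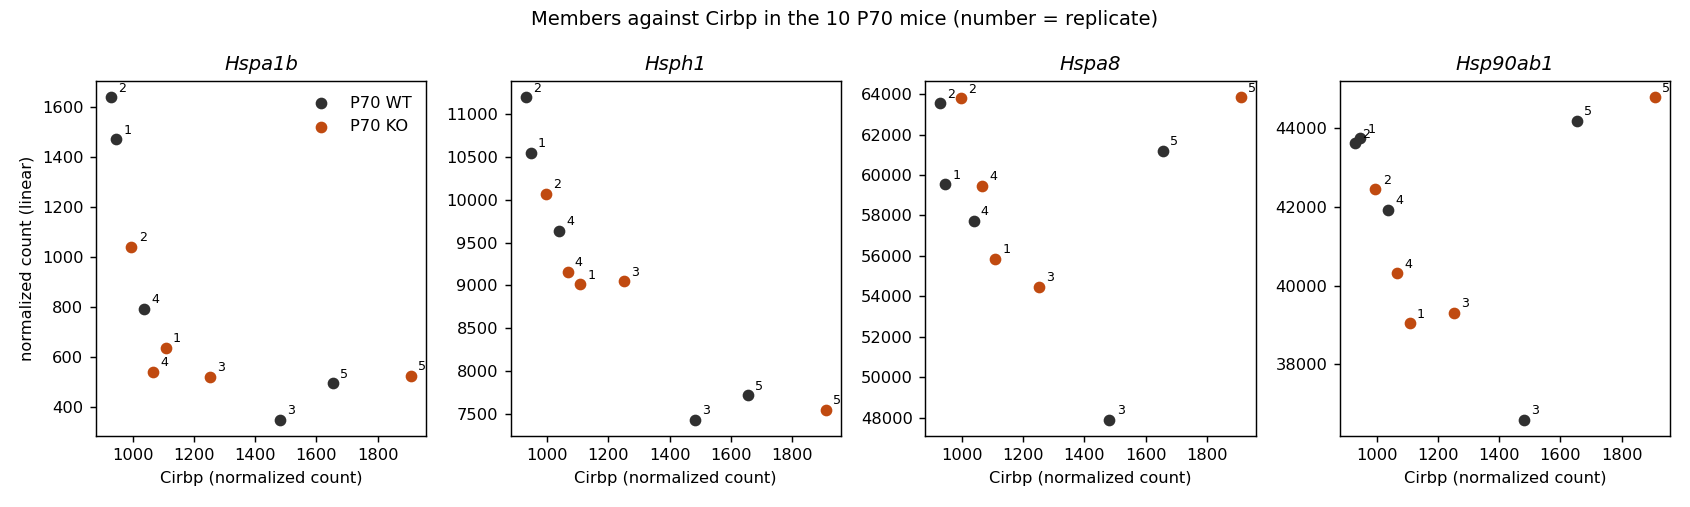
Normalized counts of Hspa1b, Hsph1, Hspa8 and Hsp90ab1 (y axes, which do not start at 0) against Cirbp (x axis) in the 10 P70 mice, with replicate numbers. The 8 mice other than number 5 fall from upper left to lower right in each panel, and the mice numbered 5, at 1655 and 1910 of Cirbp, lie off that line for Hspa8 and Hsp90ab1.

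Beside the mean of Hspa1a and Hspa1b, the genes most alike over the 20 mice, among 12771 with a mean of at least 100, were Ccdc117 (r = 0.87), Dnajb1 (0.84), Jun (0.827), Rdh13 (0.825), Phospho2 (0.813), Hsph1 (0.807), Serpinh1 (0.804), Lman2 (0.791), Fitm2 (0.776) and Ccdc126 (0.76). Serpinh1 encodes the collagen chaperone HSP47. For these 10 genes r was 0.144 to 0.753 over the 10 P21 mice (0.254 for Ccdc117 and 0.281 for Hsph1) and 0.838 to 0.986 over the 8 P70 mice other than number 5. Beside Hspa5 they were Pdia6 (0.951), Snap29 (0.934), Pdia4 (0.931), Hsp90b1 (0.887), Pdia3 (0.884), Ryk (0.869), mt-Rnr2 (0.866), mt-Rnr1 (0.864), Mkks (0.846) and Mlec (0.839), of which the 3 Pdia genes encode ER disulfide isomerases, and their r was 0.633 to 0.919 over the P21 mice and 0.822 to 0.988 over the 8 P70 mice. Beside Hspa8 they were Calr (0.868), Ppil2 (0.772), Bag3 (0.764), Spag5 (0.752), Siah2 (0.747), Pacsin2 (0.744), Stip1 (0.744), Bfsp2 (0.738), Dph2 (0.737) and P4ha2 (0.735), with 0.185 (Stip1) to 0.852 over the P21 mice and 0.753 to 0.936 over the 8 P70 mice. Stip1, the co-chaperone HOP that links HSP70 to HSP90, was the most alike to both Hspb1 (0.937) and Hsp90ab1 (0.91) and among the first 3 for Dnajb1 (0.846). Next to it stood Dnajb1 (0.884) and Xbp1 (0.88) for Hspb1, and Mapk3 (0.89) and Fkbp4 (0.89) for Hsp90ab1. Hsph1 was most like Pip4p2 (0.903), Zfp933 (0.885) and Dnaja1 (0.885), Hsp90b1 most like Cyp26b1 (0.927), Pdia3 (0.901) and Hspa5 (0.887), and Hsp90aa1 most like Tax1bp1 (0.925), Klhl13 (0.924) and Atp6ap2 (0.923). For the first 3 genes of these 6 members r was 0.451 to 0.93 over the P21 mice and 0.734 to 0.991 over the 8 P70 mice. The values over 20 mice include the P70 mice numbered 5, and all are likeness over mice and no more.

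The other chaperone genes were taken as lists chosen by family, also with earlier results of these data known. They are to be read against all genes, of which 5.53% rose and 5.62% fell in WT and 5.47% and 6.4% in KO mice. Without the P70 mice numbered 5 these shares were 11.2% and 9.97% in WT and 10.9% and 11.1% in KO mice. The lists overlap: Hyou1, Dnajb9, Dnajb11 and Dnajc3 also stand in the list of ER folding below, and Fkbp5 in that of genes induced by glucocorticoids. Of 10 other HSP70 and HSP110 genes, Hyou1, the HSP110 of the ER, rose in WT mice (0.35, SE 0.06, limma adjusted p = 0.000733) and Hyou1 and Hspa1l rose in KO mice. The counts were 3 in WT (with Hspa4 and Hspa4l) and 4 in KO mice (with Hspa4 and Hspa13) without the P70 mice numbered 5. Of 35 other J-domain genes, 4 rose in WT (Dnaja4, Dnajc21, Dnajb5 and Dnajb2, differences of 0.31 to 0.51) and 5 rose and 1 fell in KO mice, so that 11.4% and 14.3% of the list rose. Without the P70 mice numbered 5, 9 and 10 of the 35 rose, 25.7% and 28.6%, when 11.2% and 10.9% of all genes did, and 2 fell in WT (Dnajc27 and Dnajc19) and 1 in KO mice (Dnajc27). Of 26 co-chaperones of HSP70 and HSP90, Tomm34 (0.58, SE 0.08) and Bag3 (0.65, SE 0.14), a nucleotide exchange factor known as a target of heat shock factor 1, rose in WT mice. The same pair with Stip1 (0.29) and Fkbp4 (0.27) rose in KO mice, and Fkbp5 fell (-0.80, SE 0.23). In the fit without the P70 mice numbered 5, 4 rose in WT (with St13 and Bag4) and 6 in KO mice, where St13, Bag4 and Ptges3 were gained and Fkbp4 was lost (0.22, adjusted p = 0.0516). None of the 10 chaperonin genes was called in WT mice, where 2 had an unadjusted p under 0.05, and Cct4 and Cct7 rose in KO mice (0.24 and 0.29). Cct4 was called in WT mice too without the P70 mice numbered 5 (0.21, adjusted p = 0.0271). The mitochondrial chaperones showed small values, 0.05 for Hspd1, 0.02 for Hspe1 and 0.06 for Hspa9 in WT mice. Of 5 other small heat shock genes tested, Cryab rose (0.52, SE 0.14) and Hspb3 fell (-0.84, SE 0.26) in WT mice, and none was called in KO mice, where 1 had an unadjusted p under 0.05. Hspb6 fell in KO mice without the P70 mice numbered 5 (-0.40, adjusted p = 0.0128). Hspb8 was at 429 ± 49.9 in P21 WT and 488 ± 66.3 in P70 WT mice.

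The heat shock factors and their regulators differed in both directions. Hsf1 was at 1171 ± 78.3 in P21 WT and 1400.0 ± 204 in P70 WT mice (0.25, SE 0.10, limma adjusted p = 0.129), and Hsf2 at 722 ± 27.3 and 674 ± 101 (-0.11, SE 0.11, adjusted p = 0.579). Both values rest in part on P70 WT mouse 5: without the P70 mice numbered 5 Hsf1 was called in WT (0.17, SE 0.06, adjusted p = 0.0422) and KO mice (0.18, adjusted p = 0.027), and Hsf2 was at -0.01 in WT mice (adjusted p = 0.921). Hsf4 rose in both genotypes (1.12 in each, SE 0.17), from 178 ± 27.6 to 395 ± 110 in WT mice, and Hsbp1, whose product binds heat shock factor 1, fell in both (-0.45 in WT and -0.39 in KO mice, SE 0.07). Of 33 genes of ER folding and the unfolded protein response, 10 rose in WT and 9 in KO mice and 0 fell, 30.3% and 27.3% of the list, and without the P70 mice numbered 5 the counts were 11 and 13. They include the transcription factors Xbp1 (0.52 in WT and 0.62 in KO mice, SE 0.10) and Ddit3 (0.54 and 0.60, SE 0.13), Pdia4 (0.45 and 0.57, SE 0.13) and Creld2 (0.57 and 0.60, SE 0.12). The list's median was 0.13 in WT and 0.17 in KO mice. Over all 10 lists 0 genes were called between genotypes at either age or in the interaction by limma, where 4, 2 and 1 genes had an unadjusted p under 0.05 at P21, at P70 and in the interaction.

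Beside these results stand other genes that differed by age in the same mice. Of 16 early genes induced by neuronal activity and stress, 11 rose in WT and 12 in KO mice and 0 fell (12 and 12 rose without the P70 mice numbered 5), among them Fosb (2.25 and 2.36, SE 0.25) and Arc (1.26 and 1.29, SE 0.23). Over the 8 P70 mice Fos had r = 0.772 with Hspa1a and 0.106 with Hsp90aa1. Over the 10 P21 mice these were -0.202 and -0.264. Of 12 genes induced by glucocorticoids, Pdk4 rose in WT mice (0.71, SE 0.16) and Ddit4, Fkbp5 and Sult1a1 fell in KO mice (-0.61, -0.80 and -0.84). With the P70 mice numbered 5 left out, 4 rose and 1 fell in WT and 0 rose and 4 fell in KO mice. In that fit 11.2% of all genes rose and 9.97% fell in WT, and 10.9% rose and 11.1% fell in KO mice. Among cell type markers, all 5 of oligodendrocytes were lower at P70 in both genotypes (summed medians of 389800 at P21 and 168200 at P70 in WT mice), as were all 5 of erythrocytes (30500 and 9232, with a highest mouse of 61280 at P21). All 5 neuron markers were present and 1 of them was higher at P70 (summed medians of 119400 and 128600), and none of 5 astrocyte, 4 microglia or 3 ependymal markers was called. Of 5 choroid plexus markers 1 was higher at P70 in both genotypes (summed medians of 15290 and 15930 in WT, 17690 and 25290 in KO mice). Of 5 mural and 2 oligodendrocyte precursor markers 1 each was lower in both genotypes, and of 5 endothelial markers 1 was lower in KO mice. None of 3 pituitary markers was called, but their sum was 7398 in 1 P70 KO mouse, where the group's median was 87.77, and reached 1959 and 1237 in 1 mouse each of the P21 WT and P21 KO groups. The part of these cells and of neuronal activity in the age difference of the members was not tested, and in whole tissue fewer cells of a type and less RNA per cell cannot be told apart.

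**Figure D5:**
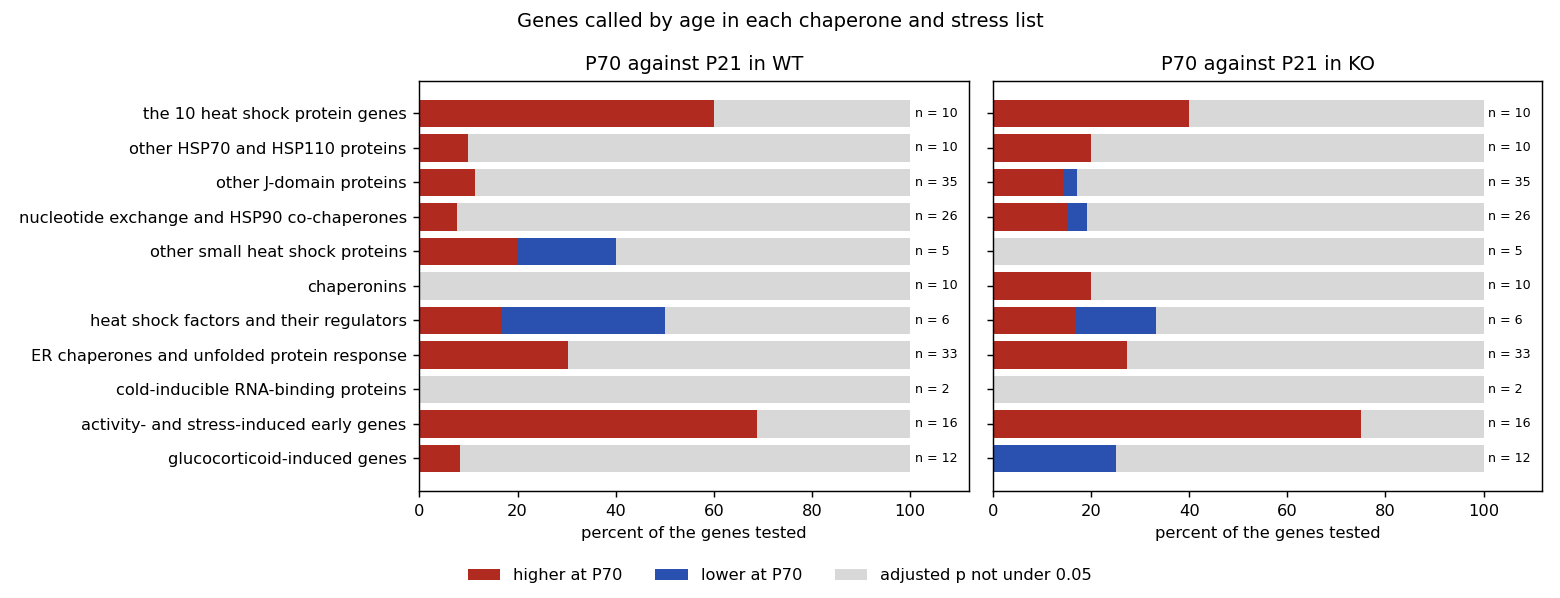
Share of the tested genes of each list that were called higher or lower at P70 (adjusted p under 0.05), in WT (left) and KO mice (right), with the number tested beside each bar. The 10 heat shock protein genes have 6 and 4 called higher, and the 16 early genes 11 and 12.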

How the data were processed

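Poly-A RNA of 20 whole brains was sequenced as paired-end TruSeq libraries. The deposited values are a signal made by the authors: estimated counts from Salmon 1.1.0 on GRCm38 with GC bias correction, imported with tximport and normalized by size factors with DESeq2. The submitters' processing notes give DESeq2 1.26.0 and R 3.6.2, and the study's methods give other versions of both. No sequencing batch or day is given in the sources used here. Values are not whole and depth is unknown, so count tests were not used. Columns were matched to mice by title, with 0 columns unmatched.

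Genes with a mean of at least 10 were tested on log2(value + 1) with limma 3.58.1 in R 4.3.3 (intensity trend, Benjamini-Hochberg adjustment, threshold 0.05). A fold change is on that scale and understates changes of low genes. Genotypes were compared within each age, and ages and the interaction in a fit of all 20 mice. Named genes were the 10 members, list genes by smallest p in each direction with Hsf1, Hsf2, Hsbp1, Hspd1, Hspe1, Hspa9, Cryab, Hspb8, Cirbp, Rbm3, Fos and Fkbp5, and the genes most correlated with a member, and only some are given. Genes named as gained or lost under an alternative were chosen after their values were seen. The members and lists were chosen with earlier results of these data known.

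Replicate numbers in the labels are shared between groups. At P70, same-numbered WT and KO mice deviated together from their group means (r = 0.188, 0.371, 0.293, 0.382 and 0.882 over 12773 genes), so every pair exceeded the 0.1 set as a rule. At P21 the mice numbered 1 did not (r = 0.0418), and those numbered 2 to 5 did (r = 0.102, 0.454, 0.302 and 0.185). Mice of different numbers were not compared, and the P70 group means include the mice numbered 5. These values alone thus cannot show that the numbers mark pairs. Alternatives were other pseudocounts, filters, scalings and thresholds, limma without the trend, other fits, the replicate block, each mouse left out in turn and, added after seeing the data, the P70 mice numbered 5 left out. Promoters came from RefSeq (GRCm38.p6), and coordinates from GENCODE M21.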

Additional observations from a re-analysis of the deposited data

Results flagged for a closer look

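Of 40 sets of 5 mice (10 genes in 4 groups), 4 held a mouse whose gap to the next was large for the range of its group by Dixon's criterion, and chance alone flags about 1 set in 20. Hspa1b was at 296.5 in P21 WT mouse 2, where the next highest mouse was at 239.5. It was at 1040.9 in P70 KO mouse 2, where the next was at 637.6. Hspb1 was at 210.2 in P21 KO mouse 3, where the next was at 167.0. Hsp90aa1 was at 30555.5 in P21 KO mouse 3, where the next was at 27128.3. In all 4 the mouse was the highest of its group. P21 KO mouse 3 lay above its group mean for 8 of the 10 genes and P70 KO mouse 2 for all 10.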

How the results depend on the processing

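None of the 10 genes was called between genotypes at P21 or P70 or in the interaction under any alternative run. With the replicate block, which joined same-numbered WT and KO mice of an age, 0, 0 and 0 members were called in those 3 comparisons. The block at P70 thus changed no genotype call. By age the block joined same-numbered P21 and P70 mice of a genotype, which are different animals with no link given by the labels. It gave 6 members in WT and 5 in KO mice. In that fit 4.32% of all genes rose and 4.35% fell in WT, and 4.07% rose and 4.76% fell in KO mice. By age in WT mice, 5 to 7 members were called under all alternatives (6 in the fit reported), and 5 to 7 without each mouse in turn. By age in KO mice 4 were called, against 7 at an adjusted p under 0.1 and 7 without the P70 mice numbered 5. The count was 6 with the KO mice fitted alone, 3 by limma without the trend, and 2 to 5 without each mouse in turn (2 without P70 KO mouse 2). No share of all genes called is given for the 0.1 threshold, the KO mice alone, no trend or single mice left out. Those counts show only how the call moved. Without the P70 mice numbered 5 the calls over all genes also rose, from 975 higher and 991 lower to 1971 and 1760 in WT, and from 965 and 1129 to 1921 and 1958 in KO mice, where the cause was not tested. Without all 4 mice numbered 5 they were 829 and 852 in WT and 1023 and 1249 in KO mice, with 6 and 4 members called. Heat shock elements of 3 units were found for 1 gene (2 of the 9 promoters) and of 2 units for 4 genes (5 promoters), since the shorter motif is part of the longer.

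The differences that changed sign are listed here. They lay between -0.162 and 0.231 and none was called, and the cause was not tested. Hspa1a at P21 was 0.039 without the mice numbered 5, and Hsp90aa1 between genotypes at P70 was 0.010 with upper quartile scaling. By age Hsp90aa1 was 0.045 (WT) and 0.069 (KO) without all mice numbered 5, and 0.041 and 0.075 without the P70 ones. Leaving out each mouse in turn, the differences at P21 ranged from -0.072 to 0.151 for Hspa1b, -0.090 to 0.051 for Hspa1a, -0.024 to 0.040 for Hspa8, -0.088 to 0.033 for Hspa5, -0.078 to 0.006 for Hsp90b1 and -0.015 to 0.084 for Dnajb1. At P70 they ranged from -0.094 to 0.111 for Hspa5, -0.162 to 0.231 for Hspb1, -0.032 to 0.107 for Hsp90b1, -0.117 to 0.031 for Hsph1, -0.086 to 0.080 for Hsp90aa1 and -0.027 to 0.075 for Hspa8. By age Hsp90aa1 ranged from -0.085 to 0.041 in WT and -0.061 to 0.075 in KO mice. The interaction ranged from -0.051 to 0.154 for Hspa5, -0.049 to 0.117 for Hsp90aa1 and -0.038 to 0.065 for Hspa8. Depth is unknown, so no counting interval is given, and with 5 mice a group the wide P70 intervals of Hspa1a and Hspa1b limit what could be seen between genotypes.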

Other observations

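The P70 mice numbered 5 also differed from the other P70 mice in genes that act with the heat shock proteins, which were singled out after their values were seen. Hsf1, which encodes the main heat shock factor, was at 1742 in P70 WT mouse 5 and 1855 in P70 KO mouse 5, against 1210.1 to 1403 in the other 8 P70 mice. Hsf2, a second factor of the family, was at 502 and 461 in these 2 mice, against 651 to 763 in the other 8. Chordc1, which encodes an HSP90 co-chaperone, was at 1459 and 908, against 1697 to 2652. In the same 2 mice Hspa8 was at 61202 and 63854, against 47895 to 63804 in the other 8, and Hsph1 at 7720 and 7551, against 7434 to 11199.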
